A study of Homo sapiens with 9 samples.

Results

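Collagen crosslinking and its preparation inside the cell were followed here through 10 genes: the lysyl oxidases LOX, LOXL1, LOXL2, LOXL3 and LOXL4, the lysyl hydroxylases PLOD1, PLOD2 and PLOD3, the prolyl 4-hydroxylase alpha subunit P4HA2 and the collagen chaperone SERPINH1. They were taken by symbol from the 60603 genes of the expression table, in which all 10 were found, and all 10 passed the filter on low counts, LOXL4 only through the siEF libraries. RNA came at 30 h from TC32 cells, an established line of Ewing sarcoma with the EWS::FLI1 fusion, in 3 groups of 3 biological replicates. The siEF cells were plated on an siRNA against the fusion breakpoint, the siNEG cells on a nonspecific siRNA, and the Media cells received no siRNA. All groups were the same line, labelled WT and batch 1, and were grown with 10% FBS and L-glutamine. One line and a transient silencing are the whole of the model. P values measure the spread between these libraries, and in bulk RNA fewer cells with a transcript and less of it per cell cannot be told apart.

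Fibrillar collagen chains are hydroxylated on proline by enzymes whose alpha subunits include P4HA2, and on lysine by the PLOD enzymes, while they are still in the endoplasmic reticulum. SERPINH1, also called HSP47, holds the folded triple helix there until export. Outside the cell, the copper-dependent lysyl oxidases convert lysine and hydroxylysine side chains to aldehydes that form the crosslinks of collagen and elastin. EWS::FLI1 binds GGAA sequences and both induces and represses genes, and lowering it in Ewing sarcoma cells is known to raise mesenchymal and matrix genes.

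Total expected counts were between 20727706 and 33134581 per library. FLI1, whose 3′ part is in the fusion transcript, had 1063, 725 and 1148 counts in siEF replicates 1, 2 and 3, against 1537, 1646 and 1497 in siNEG and 1823, 1772 and 1659 in Media. Relative to the TMM-scaled library size (CPM), it was lower in each siEF library than in each control library, with 37.8 ± 2.0 for siEF, 48.4 ± 0.315 for siNEG and 57.9 ± 1.65 for Media (mean ± SD, n = 3). The difference of -0.35 on the log2 scale in siEF against siNEG (SE 0.06, edgeR adjusted P = 2.88e-05) did not reach the fold cut-off used below. FLI1 was also lower in siNEG against Media (-0.26, SE 0.05, edgeR adjusted P = 0.00347), so part of its distance from Media was seen with the nonspecific siRNA. Of 6 Ewing sarcoma markers, 5 were called lower in siEF against siNEG, as were 11.7% of all genes, and 5 against Media, as were 12.5%. The other marker, CD99, was higher against siNEG (log2 fold change 0.23, edgeR adjusted P = 0.00123) and at -0.11 against Media (edgeR adjusted P = 0.0815). Its mean was 189 CPM in siEF, 161 in siNEG and 204 in Media. The summed level of the 6 was 381 to 391 CPM in siEF, 747 to 761 in siNEG and 869 to 909 in Media. The 7 markers of blood, endothelial, epithelial and liver cells summed to between 2.24 and 5.69 CPM over the 9 libraries. Of these, 3 were tested. PECAM1 of endothelial cells was called lower in siEF against both controls. CDH5, also endothelial and at 19 counts or fewer in every library, could pass the filter only through siEF. Its mean was 0.663 CPM there, 0.21 in siNEG and 0.0972 in Media. The log2 fold change of CDH5 was 1.65 against siNEG (edgeR adjusted P = 0.0262), and it was called higher against Media (2.69, edgeR adjusted P = 0.0028). A gene that passes only where it is high can show no fall, so no direction is read from it. EPCAM of epithelial cells, at 13 counts or fewer, was called higher in siEF against siNEG (3.17) but was at 0.02 against Media, with siNEG itself called lower than Media (-3.15). CD3E was at 0 throughout. The part of these cell types in the results was not tested. The 10 most abundant genes took 12.29% to 12.87% of counts in siEF and 5.78% to 6.62% in the other libraries.

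The start regions of the genes are shown first, because GGAA is the sequence the fusion recognises. RefSeq (GRCh38.p14) gave a window before the start site for 9 of the 10 genes, and 250 bases before the start were searched on both strands. The RefSeq start can lie inside the gene span given below, as for LOXL3, PLOD3 and P4HA2. LOX had 3 windows, and LOXL3 and SERPINH1 had 2 each, of which a single one is given. The 4 stretches below are parts of these windows that hold no annotated UTR base, for 3 lysyl oxidases that were called higher and for PLOD3, whose window had the most GGAA. They are written 5′ to 3′ on the strand of the gene, and capitals mark GGAA or its reverse complement TTCC.
LOX, minus strand, chr5:122078414-122078509: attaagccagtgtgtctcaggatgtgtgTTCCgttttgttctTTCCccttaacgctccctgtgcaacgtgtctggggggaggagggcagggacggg
LOXL3, minus strand, chr2:74553962-74554192: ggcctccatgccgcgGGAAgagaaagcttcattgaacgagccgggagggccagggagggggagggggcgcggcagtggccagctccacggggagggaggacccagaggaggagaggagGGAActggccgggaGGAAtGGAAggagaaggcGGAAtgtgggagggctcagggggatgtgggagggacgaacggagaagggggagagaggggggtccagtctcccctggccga
LOXL4, minus strand, chr10:98268195-98268444: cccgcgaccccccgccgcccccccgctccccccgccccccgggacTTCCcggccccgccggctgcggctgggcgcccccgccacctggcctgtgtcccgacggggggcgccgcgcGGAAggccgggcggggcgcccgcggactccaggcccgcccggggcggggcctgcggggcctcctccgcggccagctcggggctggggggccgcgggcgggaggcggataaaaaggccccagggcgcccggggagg
PLOD3, minus strand, chr7:101217582-101217831: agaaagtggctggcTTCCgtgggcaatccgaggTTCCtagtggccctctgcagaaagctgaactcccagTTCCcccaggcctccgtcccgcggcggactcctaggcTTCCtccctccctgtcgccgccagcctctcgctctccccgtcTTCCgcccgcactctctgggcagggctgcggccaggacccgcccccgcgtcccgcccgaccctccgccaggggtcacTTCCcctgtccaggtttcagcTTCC

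GGAA was present in all 9 windows, with 4 matches in LOX, 3 in LOXL1, 5 in LOXL3, 2 in LOXL4, PLOD1 and PLOD2, 7 in PLOD3, 4 in P4HA2 and 3 in SERPINH1. A match is common, since 92.7% of the 35116 windows in the table held at least 1 and the median was 3. PLOD1, PLOD2, PLOD3 and SERPINH1, which were not called in any comparison, held the motif, as did the called genes that had a window. The part of the motif in the calls was not tested. No window held 2 GGAA in tandem, the shortest form of the repeat, which 3.06% of all windows held. The longer form CCGGAA was found only in SERPINH1, and in 14.5% of all windows.

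The GC box GGGCGG was found 6 times in LOXL4, 4 times in PLOD1, 3 times in PLOD3 and 1 time each in LOX and PLOD2, and in 42.6% of all windows. The LOXL4 stretch was also the richest in GC, at 86.4% of its window against 55.2% in LOX, 64.4% in LOXL3 and a median of 58% over all windows. ACGTG, the core of the hypoxia response element, was found 4 times in LOX and 2 times in PLOD2, and in 18.5% of all windows. TATAAA and TGANTCA were not found in the 9 windows, and were in 10.7% and 6.57% of all windows. These are matches of letters within 250 bases, and say nothing of binding.

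The first comparison was siEF against siNEG, which asks what changed with the breakpoint siRNA beyond the effect of an siRNA as such. All 5 lysyl oxidases and P4HA2 were called higher in siEF, a call being a log2 fold change past 1 in size with an edgeR adjusted P below 0.01. LOXL4 could pass the filter only where it was high, and of the other 9 genes 5 were called higher. Tested against the fold cut-off itself (edgeR's glmTreat), LOX, LOXL2 and LOXL4 stayed called, and LOXL3 (adjusted P = 0.0109), LOXL1 (adjusted P = 0.0172) and P4HA2 (adjusted P = 0.471) did not. None of the 10 was called lower by edgeR or DESeq2, and none was lower at an unadjusted edgeR P under 0.05. PLOD1 and PLOD3 rose at an adjusted P under 0.01 by less than the fold cut-off, and PLOD2 and SERPINH1 did not pass either criterion. Across the 16093 genes tested, 17.1% were called higher and 11.7% lower, and the median log2 fold change was 0.05 against 1.10 over the 10 genes. At the adjusted P alone, 8 of the 10 were higher and none lower, against 33.6% of all genes higher and 31.7% lower. In 8 of the 10, every siEF library was above every siNEG library, which held for 39.8% of all genes. LOXL4, which could pass only where it was high, is included in that median and in both of these counts.

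**Figure D1:**
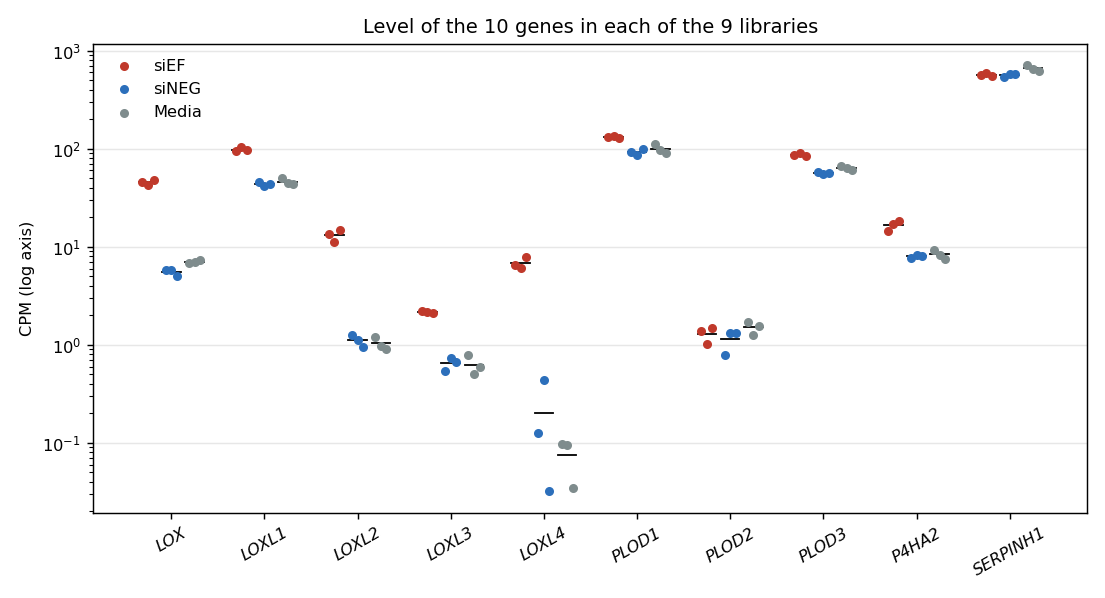
CPM after TMM scaling on a log axis for the 10 genes in each of the 9 libraries, with siEF in red, siNEG in blue, Media in grey and a line at the group mean. The siEF points lie above all control points for the 5 lysyl oxidases, PLOD1, PLOD3 and P4HA2, and among them for PLOD2 (1.03 to 1.47 CPM in siEF, 0.79 to 1.33 in siNEG).

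LOX, the founding lysyl oxidase, lies on the minus strand of chr5:122063195-122078413. It had 1273, 867 and 1414 counts in siEF, 182, 197 and 156 in siNEG, and 211, 219 and 208 in Media. The siEF libraries stood far apart from both control groups. The control groups were closer to each other, with every siNEG library below every Media library in CPM. LOX rose 8.27-fold, from 5.52 ± 0.449 to 45.6 ± 3.02 CPM (SD, n = 3) (log2 fold change 3.05, SE 0.08, edgeR adjusted P = 8.62e-15).

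LOXL2, a lysyl oxidase with scavenger receptor domains that acts on collagen IV and fibrillar collagens, lies at chr8:23296897-23425328 on the minus strand. It had 376, 229 and 429 counts in siEF, 40, 38 and 30 in siNEG, and 37, 31 and 26 in Media. The lowest siEF library was several times the highest control library. The rise was 11.8-fold (log2 fold change 3.56, SE 0.17, edgeR adjusted P = 7.77e-12), from 1.12 ± 0.151 to 13.2 ± 1.78 CPM (SD, n = 3).

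LOXL4, the lysyl oxidase with the smallest counts in the controls, lies at chr10:98247690-98268194 on the minus strand. It had 180, 123 and 229 counts in siEF, 4, 15 and 1 in siNEG, and 3, 3 and 1 in Media. All 3 siEF libraries were above 100 counts, and siNEG replicate 2 held most of the siNEG counts. Taken as summed counts over library sizes, the siEF level was 33.3 times that of siNEG, with a 95% exact interval of 21.4 to 55.0 that covers counting error only. The fitted log2 fold change was 5.02 (SE 0.40, edgeR adjusted P = 5.9e-09), a value that rests on few control counts. Without siNEG replicate 2 it was 6.34, so this library sets the size of the LOXL4 change.

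LOXL1, which acts mainly on elastic fibres, lies at chr15:73925989-73952137 on the plus strand and was the most abundant lysyl oxidase in the controls. It had 2603, 2099 and 2798 counts in siEF, 1461, 1423 and 1356 in siNEG, and 1538, 1393 and 1261 in Media. The siEF group did not overlap either control group in CPM. LOXL1 rose 2.22-fold, from 43.9 ± 2.14 to 97.6 ± 4.61 CPM (SD, n = 3), with a log2 fold change of 1.15 (SE 0.06, edgeR adjusted P = 6.06e-11).

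LOXL3, a scavenger receptor lysyl oxidase like LOXL2 and LOXL4, lies at chr2:74532258-74555690 on the minus strand. Its counts were low in every library, at 62, 44 and 62 in siEF, 17, 25 and 21 in siNEG, and 24, 16 and 17 in Media. Even so, the siEF libraries were apart from both control groups, which overlapped each other. LOXL3 rose 3.33-fold, from 0.649 ± 0.102 to 2.17 ± 0.0597 CPM (SD, n = 3), with a log2 fold change of 1.74 (SE 0.28, edgeR adjusted P = 3.1e-05).

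The lysyl hydroxylases changed less. PLOD1, which hydroxylates lysines of the triple helix, lies at chr1:11934205-11975538 on the plus strand and was at 132, 135 and 128 CPM in siEF and 92.7, 87.1 and 98.2 in siNEG. It rose by 0.51 on the log2 scale (SE 0.07, edgeR adjusted P = 3.1e-06), or 1.42-fold, and no siEF library overlapped siNEG. PLOD3, which also transfers glucose and galactose to hydroxylysine, lies at chr7:101205977-101218420 on the minus strand and was at 86.3, 91.4 and 83.8 CPM in siEF and 57.5, 54.6 and 57.2 in siNEG. It rose 1.54-fold (log2 fold change 0.63, SE 0.05, edgeR adjusted P = 1.67e-08).

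PLOD2, the hydroxylase of the telopeptide lysines that give the stable hydroxylysine-derived crosslinks, lies at chr3:146035139-146163725 on the minus strand. It had only 38, 21 and 43 counts in siEF, 25, 45 and 41 in siNEG, and 53, 40 and 44 in Media. The groups overlapped. The difference between siEF and siNEG was 0.19 on the log2 scale (SE 0.29, edgeR adjusted P = 0.571), which was below the spread between replicates, and a change of the size seen in PLOD1 could not be told from none at these counts.

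P4HA2, a catalytic subunit that makes 4-hydroxyproline, lies at chr5:132190147-132295315 on the minus strand. It had 403, 349 and 533 counts in siEF, 244, 282 and 252 in siNEG, and 285, 263 and 214 in Media. The siEF libraries were at 14.6, 17.1 and 18.3 CPM, above the highest siNEG library at 8.31. P4HA2 rose 2.07-fold (log2 fold change 1.05, SE 0.11, edgeR adjusted P = 1.3e-07), just over the fold cut-off. Without siEF replicate 3 or without siNEG replicate 1 the fold change was 0.97 and 0.99, which is not called.

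SERPINH1, the chaperone and the most abundant of the 10 genes, lies at chr11:75562056-75572783 on the plus strand. It had 15546, 12113 and 16037 counts in siEF, 17214, 19666 and 17989 in siNEG, and 21714, 20616 and 17550 in Media. In CPM the siEF and siNEG ranges, 550 to 593 and 544 to 580, overlapped. The difference was 0.0037 on the log2 scale (SE 0.05, edgeR adjusted P = 0.954), and it changed sign with the scaling, with a fit of only the 6 libraries and when some libraries were left out.

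**Figure D2:**
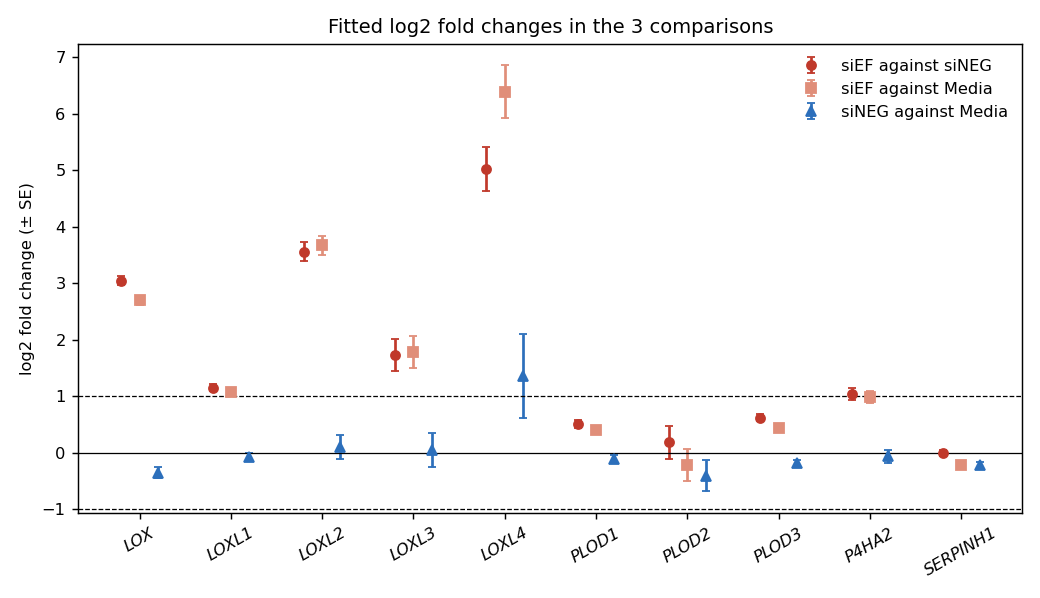
Fitted log2 fold changes with their standard errors for the 10 genes in the 3 comparisons, with dashed lines at the cut-offs of 1 and -1. The lysyl oxidases run from 1.15 (LOXL1) to 5.02 (LOXL4) in siEF against siNEG, while siNEG against Media lies between -0.40 and 0.11 for all but LOXL4, whose value of 1.37 has a wide error.

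In siNEG against Media, the comparison of the nonspecific siRNA with no siRNA, none of the 10 genes was called by edgeR or DESeq2. At an unadjusted edgeR P under 0.05, 0 were higher and 3 lower, with no share of all genes at that threshold beside them. The median log2 fold change was -0.09 over the 10 genes. Over all genes tested, 0.162% were called higher and 0.267% lower. At the adjusted P alone SERPINH1 was lower in siNEG (log2 fold change -0.22, SE 0.05, edgeR adjusted P = 0.00952), against 3.83% of all genes higher and 5.96% lower. Its siNEG libraries at 544, 580 and 577 CPM were all below the Media libraries at 709, 654 and 613. This was at the edge of the threshold: without 1 library the SERPINH1 adjusted P ran from 0.00199 to 0.0566 and was over 0.01 in 7 of 9 fits, and it was 0.0122 with RLE, 0.0135 with upper quartile scaling, 0.0118 with at least 10 counts in every library and 0.0194 with only the 6 libraries (all edgeR), but 0.00044 with no filter and 0.00047 with DESeq2. LOX was lower by 0.35 (SE 0.09, edgeR adjusted P = 0.0174) and PLOD3 by 0.18 (edgeR adjusted P = 0.0286), which did not pass. For LOXL4 the fitted value was 1.37 (SE 0.74, edgeR adjusted P = 0.234), from 20 counts against 7 in all, and without siNEG replicate 2 it was 0.04.

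In siEF against Media, which shares its siEF libraries with the first comparison and its Media libraries with the one above, the 5 lysyl oxidases were called higher. LOXL4 could pass the filter only where it was high, so no direction is read from it, here or in the counts below. Tested against the fold cut-off itself 4 of them were, LOXL4 included, and LOXL1 was not (glmTreat in edgeR, adjusted P = 0.147). Of all genes, 17.4% were called higher and 12.5% lower. LOX rose 6.5-fold (edgeR adjusted P = 2.48e-14), and the log2 fold changes of LOXL1, LOXL2 and LOXL3 were 1.08, 3.67 and 1.78. For LOXL4, 532 counts stood against 7, a ratio of 89.3 with a 95% exact interval of 43.0 to 223 for counting error. P4HA2 was at 0.99 (SE 0.11, edgeR adjusted P = 2.72e-07), just short of the cut-off, as the same rise against siNEG was just over it. At the adjusted P alone, 8 genes were higher and SERPINH1 was lower by 0.21 (SE 0.05, edgeR adjusted P = 0.00183), against 33.6% of all genes higher and 32.3% lower. With upper quartile scaling the SERPINH1 value was -0.11 (edgeR adjusted P = 0.0627), and without siEF replicate 3 it was -0.19 (edgeR adjusted P = 0.012), neither of which passes.

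Between genes, levels were compared per length, as TPM, in which counts are divided by the length of the annotation's merged exons and scaled to the library. In siNEG, SERPINH1 was the highest at 375, followed by PLOD1 (72.3), LOXL1 (49.9), PLOD3 (41.3), LOX (4.09), P4HA2 (3.29), LOXL2 (0.77), LOXL3 (0.599), PLOD2 (0.33) and LOXL4 (0.233). Neighbours whose libraries overlapped were LOXL2 with LOXL3, and PLOD2 with LOXL4. In siEF the order was SERPINH1 (357), LOXL1 (106), PLOD1 (97.9), PLOD3 (60.7), LOX (32.2), LOXL2 (8.67), LOXL4 (7.44), P4HA2 (6.48), LOXL3 (1.9) and PLOD2 (0.35). The overlapping neighbours were LOXL1 with PLOD1, LOXL2 with LOXL4, and LOXL4 with P4HA2. With the longest transcript as the length, PLOD1 (126) stood above LOXL1 (99.7) in siEF, and PLOD3 (58.8) above LOXL1 (46.2) in siNEG, so those orders rest on the length used. P4HA2 also moved up with that length, to 5.19 above LOX (3.19) in siNEG, and to 10.4 beside LOXL2 (10.1) and above LOXL4 (5.37) in siEF. The Media order by merged exons was that of siNEG, with LOXL3 and PLOD2 overlapping as well as LOXL2 and LOXL3, and PLOD2 apart from LOXL4.

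The make-up of the lysyl oxidase family was then followed as the share of each enzyme in a library. LOXL1 took 67.8% ± 2.71 (SD, n = 3) of the summed lysyl oxidase TPM in siEF and 89.8% ± 1.22 in siNEG, with 88.8% in Media. LOX took 20.6% ± 1.39 in siEF and 7.35% ± 0.585 in siNEG. LOXL2 was at 1.38% ± 0.146 in siNEG and 5.56% ± 0.759 in siEF, while LOXL3 was at 1.08% ± 0.209 and 1.22% ± 0.0583. LOXL4 was at 4.68%, 4.2% and 5.44% in siEF and at 0.249%, 0.942% and 0.0677% in siNEG, so its siNEG mean of 0.42% comes mostly from replicate 2. No library overlapped between siEF and siNEG for LOX, LOXL1, LOXL2 and LOXL4, which gives P = 0.1 in the exact two-sided permutation test, the smallest value 3 against 3 allows (0.133 after Benjamini-Hochberg adjustment over 8 shares). LOXL3 gave P = 0.4 in the same exact test. The summed level of the family was 156 ± 4.14 TPM in siEF and 55.6 ± 0.645 in siNEG, or 2.81 times.

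Within the lysyl hydroxylases the shares stayed close. PLOD1 was at 61.6% ± 0.414 in siEF and 63.4% ± 0.918 in siNEG, PLOD3 at 38.2% ± 0.459 and 36.3% ± 0.932, and PLOD2 at 0.222% and 0.288%. The libraries of PLOD1 and PLOD3 did not overlap between siEF and siNEG (exact permutation P = 0.1), and PLOD2 gave P = 0.3 in that exact test. Media was at 62.1% for PLOD1 with an SD of 1.62, which takes in siEF. The summed level was 159 ± 8.86 TPM in siEF and 114 ± 7.66 in siNEG, or 1.4 times.

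**Figure D3:**
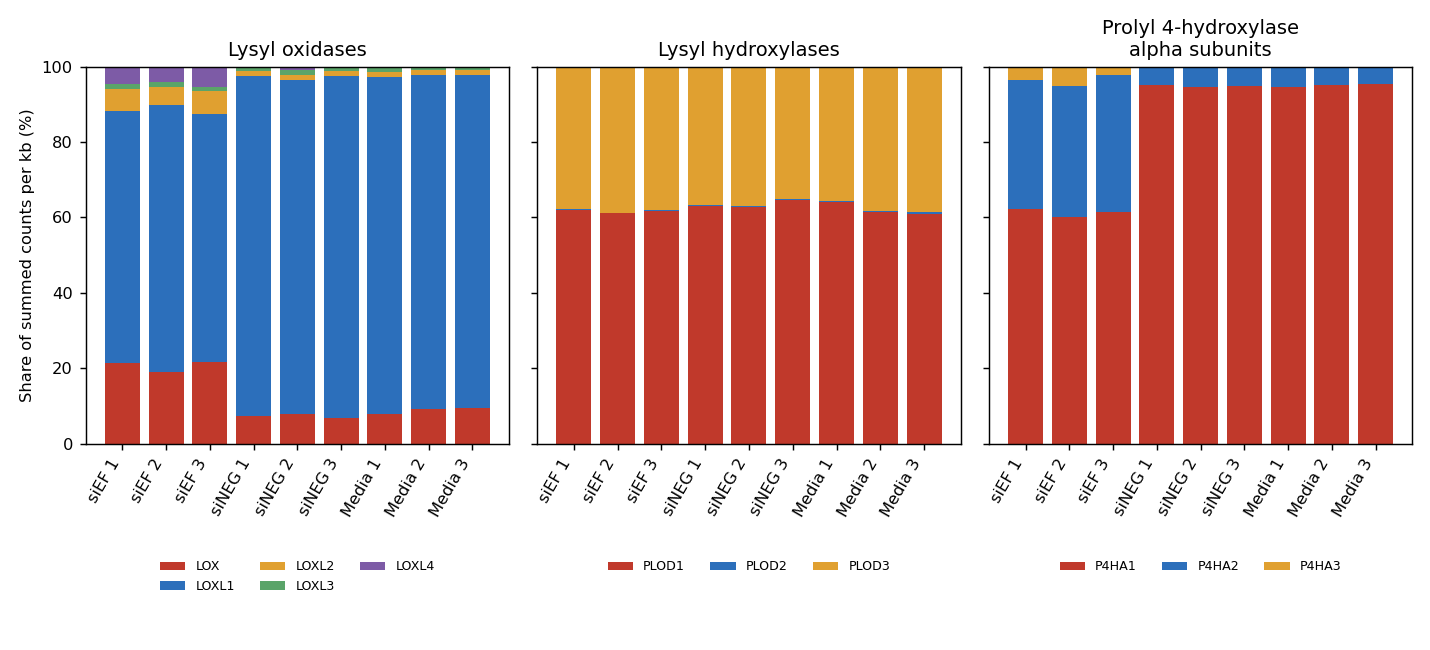
Stacked shares (%) of summed counts per kb in each library for the 5 lysyl oxidases, the 3 lysyl hydroxylases and the 3 prolyl 4-hydroxylase alpha subunits. LOX, LOXL2 and LOXL4 take a larger share in siEF (LOX 20.6% against 7.35% in siNEG), and P4HA2 is 35.1% of the alpha subunits in siEF and 4.96% in siNEG.

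The alpha subunit shares were looked at after their values were seen, and are a description without a test. P4HA2 was 35.1% ± 1.18 (SD, n = 3) of the 3 alpha subunits in siEF and 4.96% ± 0.12 in siNEG, and P4HA1, the usual main subunit, was 61.2% and 94.8%. With the longest transcripts as lengths P4HA2 was 52.0% in siEF, above P4HA1 at 44.3%, so which subunit leads depends on the length used.

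Other genes of the pathway were counted from 4 lists, in siEF against siNEG unless Media is named. Of 15 genes for collagen modification and folding, all 15 were tested, 2 were called higher and 3 lower, where 17.1% and 11.7% of all genes were. P4HA1 fell by 2.41 on the log2 scale (SE 0.07, edgeR adjusted P = 1.67e-14), from 46.9 to 8.85 CPM. P3H2, a prolyl 3-hydroxylase, rose by 3.31 (SE 0.15, edgeR adjusted P = 3.55e-12), from 1.54 to 15.3 CPM. P4HA3, the alpha subunit with the lowest level, was at 2.39 (SE 0.53, edgeR adjusted P = 0.000641) on 17, 20 and 13 counts against 4, 6 and 2. It passed the filter through siEF alone and could show no fall, so no direction is read from its call. It was not tested where every library had to hold at least 10 counts, which left 1 gene of this list called higher. In siEF against Media P4HA3 was not called (1.5026, edgeR adjusted P = 0.0104), and 1 gene of this list was called higher. Its siNEG libraries were all below its Media libraries in CPM (-0.887, edgeR adjusted P = 0.339). FKBP14, a prolyl isomerase of the endoplasmic reticulum, fell by 1.59 (SE 0.08, edgeR adjusted P = 8.86e-12). The median over this list was 0.19, against 0.05 over all genes tested.

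Of 8 procollagen proteinases and enhancers, 4 were tested. By edgeR 2 were called higher and none lower, where 17.1% and 11.7% of all genes were. At an unadjusted edgeR P under 0.05, 1 was lower, with no share of all genes at that threshold beside it. DESeq2, run without the filter on low counts, called 3 of the 8 higher and none lower. The tested genes that edgeR did not call were at 0.48 and -0.52, within the fold cut-off. Those not tested had 14 counts or fewer in every library. The genes called by edgeR were BMP1, the C-proteinase that also activates LOX, and its enhancer PCOLCE. BMP1 rose by 1.58 (SE 0.07, edgeR adjusted P = 1.98e-12) from 17.3 to 51.7 CPM, and PCOLCE rose by 1.48 (SE 0.09, edgeR adjusted P = 2.6e-10). Of 14 fibrillar collagen and elastic fibre genes, 11 were tested, 10 called higher and 1 lower, with a median of 1.69, where 17.1% of all genes were called higher and 11.7% lower. COL3A1 went from 627 to 5830 CPM (log2 fold change 3.22, SE 0.04, edgeR adjusted P = 6.51e-18). COL1A1 went from 15.2 to 341 CPM (4.49, SE 0.06, edgeR adjusted P = 7.39e-18). ELN, which encodes elastin, was the one called lower, from 94.0 to 39.4 CPM (-1.26, SE 0.08, edgeR adjusted P = 3.94e-10).

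The 5 genes for copper, zinc and ascorbate supply were all tested, and none was called higher by edgeR or DESeq2. At an unadjusted edgeR P under 0.05, 2 were higher, with no share of all genes at that threshold beside them. Called lower were 3, against 11.7% of all genes, and the median of the 5 was -1.02. The 3 became 2 with upper quartile scaling, with at least 10 counts in every library, against the fold cut-off itself, and without siEF replicate 1 or siEF replicate 3. With upper quartile scaling, without siEF replicate 1 and without siNEG replicate 1, 1 of the 5 was called higher. In siEF against Media 1 was called higher and 3 lower, where 17.4% and 12.5% of all genes were. ATP7A, the transporter that loads copper onto secreted cuproenzymes, fell by 1.36 (SE 0.08, edgeR adjusted P = 7.04e-11). SLC31A1, the main copper importer, fell by 1.28 (SE 0.06, edgeR adjusted P = 1.06e-11). ATOX1, the copper chaperone that hands copper to ATP7A, had a log2 fold change of 0.27 (SE 0.09, edgeR adjusted P = 0.0126), with every siEF library above every siNEG library.

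**Figure D4:**
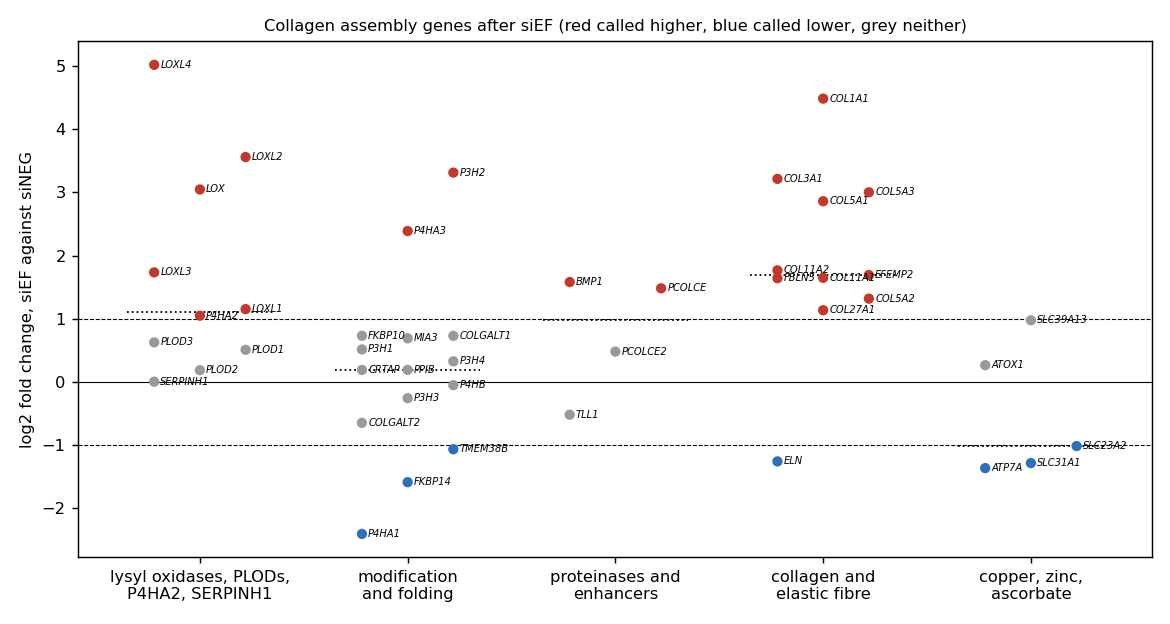
Fitted log2 fold changes of siEF against siNEG for the 10 genes and the 4 pathway lists, one point a gene, with red for called higher, blue for called lower, grey for neither, dashed lines at the cut-offs and a dotted line at each list's median. The median is 1.10 for the 10 genes, LOXL4 included. It is 1.69 for collagen and elastic fibre genes and -1.02 for copper, zinc and ascorbate supply.

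Some of the 10 genes overlap another gene. On the same strand, ENTPD4 shares 120 exon bases with LOXL2, which no strand setting can assign, and had 1754 to 2881 counts per library against 26 to 429 for LOXL2. ENTPD4 was at 0.34 in siEF against siNEG (SE 0.07, edgeR adjusted P = 0.000188), and its part in the LOXL2 value was not tested. Overlaps with tested genes on the opposite strand follow. The strand setting of the counting is not given in the sources used here, so reads of the pairs may not be told apart. SRFBP1 shares 138 exon bases with LOX and fell by 1.14 (SE 0.10, edgeR adjusted P = 1.73e-08), with 303, 228 and 302 counts in siEF and 760, 819 and 719 in siNEG. LOXL1-AS1 shares 335 bases with LOXL1 and went the other way from it, by -0.87 (SE 0.08, edgeR adjusted P = 2.53e-08). Both partners were lower in siEF while LOX and LOXL1 were higher. The part of the opposite-strand genes in the values of the 10 genes was not tested. HTRA2 and DOK1 share 936 and 216 bases with LOXL3 and had -0.16 (edgeR adjusted P = 0.0689) and 0.43 (edgeR adjusted P = 0.000452), at counts several times those of LOXL3. ZNHIT1, with 102 bases shared with PLOD3, had 0.38 (edgeR adjusted P = 0.000511). PDLIM4 and SLC22A4 lie across P4HA2 with no shared exon base and rose by 1.40 and 1.35, and their part in the P4HA2 value was not tested.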

How the data were processed

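The labels give polyA RNA of TC32 cells, and name a small RNA library kit. According to the methods, the authors aligned to hg38 with STAR 2.7.1a, and RSEM 1.3.1 gave the expression estimates. They deposited expected counts per gene and library, not scaled for depth and not pooled. Annotation release and strand setting are not given in the sources used here. Within-group pairs differed beyond sampling noise (chi-square per degree of freedom 3.57 to 23.2), so each library was 1 replicate. Precision rests on this spread as well as on total counts.

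Expected counts were rounded, filtered with filterByExpr (16093 genes) and scaled by TMM. The test was edgeR 4.0.16's quasi-likelihood test (R 4.3.3), all 9 libraries in 1 fit, with Benjamini-Hochberg adjustment over all genes tested. Calls needed a log2 fold change past 1 in size and an adjusted P below 0.01, the cut-offs of the study's methods. Shares of all genes come from this edgeR fit. Counts at an unadjusted P, with glmTreat or with DESeq2 have no such share beside them. The procedure was tested on simulated data. SE is the fold change over the square root of F. CPM and TPM were computed here from the counts. Lengths and positions came from GENCODE 44 (99.51% of identifiers matched, 5 of the 10 genes with the same version). Shares were compared with exact permutation tests over libraries (scipy 1.17.1, Python 3.11.15).

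Named genes were the 10, FLI1, up to 2 called rises and 2 called falls with the largest fold changes in each pathway list, and opposite-strand neighbours that passed the filter. Other called genes of the lists were counted and not named. The cell type markers in the text, ATOX1 and ENTPD4 were named outside this rule, after their values were seen. The 10 genes and the lists were chosen with earlier results of these data known. Alternatives were RLE or upper quartile scaling, DESeq2 1.42.0, other filters, only the 6 libraries compared, unrounded counts, a replicate block, other cut-offs, other lengths, and each library left out.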

Additional observations from a re-analysis of the deposited data

How the results depend on the processing

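Of the single-gene fold changes recomputed under the alternatives, 157 kept direction and call in siEF against siNEG, 165 in siNEG against Media and 165 in siEF against Media. The others were 10 that changed sign and 2 that lost the call in siEF against siNEG. In siNEG against Media 3 changed sign, and in siEF against Media 4 gained a call. Tested against the fold cut-off itself, 3 of the 10 genes (LOX, LOXL2 and LOXL4) were higher in siEF than in siNEG and 1 gene of modification and folding. With no fold cut-off, 1 of the 10 was lower in siNEG against Media, and 8 were higher and 1 lower in siEF against Media. In siEF against siNEG, 9 genes of modification and folding were then higher and 4 lower. Of the proteinase and enhancer genes, 3 were higher and 1 lower. Of the copper, zinc and ascorbate genes, 1 was higher and 3 lower. At that threshold 33.6% of all genes were higher and 31.7% lower in siEF against siNEG. At least 10 counts in every library left 1 modification and folding gene called higher and LOXL4 not tested. Upper quartile scaling, which shifted the median of all genes by 0.0863 in siEF against siNEG and 0.0992 in siEF against Media, called 1 copper, zinc and ascorbate gene higher, and leaving out 1 library gave 0 to 1. Proteinase and enhancer genes called higher numbered 3 with DESeq2 and with no filter, which both take in genes that the main filter removed. They numbered 2 to 3 without 1 library.

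Sign changes were among values that were not called. SERPINH1 in siEF against siNEG was -0.0062 with RLE, -0.0375 with no filter, -0.0016 with only the 6 libraries, -0.014 with DESeq2 and from -0.0574 to 0.0266 over the fits without 1 library. PLOD2 in siEF against siNEG was -0.0501 without siNEG replicate 1, the lowest, and 0.3112 without siEF replicate 2, the highest. In siNEG against Media, LOXL3 ran from -0.0868 (without Media replicate 2) to 0.24 over the fits without 1 library and was -0.0544 without siNEG replicate 2, and P4HA2 ran from -0.1358 to 0.021 (without Media replicate 1). P4HA2 in siEF against Media was called under upper quartile scaling (1.09), at least 10 counts (1.02), without siEF replicate 1 (1.08) and without Media replicate 1 (1.06). The cause was not tested.

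Replicate numbers do not pair the libraries: same-numbered libraries of different groups correlated between -0.0875 and 0.0482 in their deviations from the group means. With the replicate number as a block, 6 of the 10 genes were called in siEF against siNEG, as without it, and LOX was at 3.05, while the adjusted P of SERPINH1 in siNEG against Media went from 0.00952 to 0.0113. Counts limit LOXL3, LOXL4 and PLOD2 most.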
